A study of Mus musculus with 3 samples.

Results

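The ectodysplasin ligand gene Eda, its receptor gene Edar and the gene of the receptor's adaptor, Edaradd, were followed through the epithelium of embryonic mouse back skin. The members were these 3 listed genes, and all 3 were found among the 14656 genes present in both count tables. RNA was counted cell by cell in 3 libraries: total epithelium (1601 cells) and placode-enriched 1 and 2 (1511 and 1571 cells). Every library came from wild-type (WT) embryos of strain C57BL/6JOlaHsd at E14.5, when the first hair placodes form, with no transgene or treatment named, and each sample pooled the epithelial sheets of 3 to 4 littermates. The total epithelium library held live sorted cells, and the placode-enriched libraries held live cells that were positive for MAdCAM-1, a surface adhesion molecule of the hair placode. The values are therefore averages over pooled embryos of 1 strain and 1 age.

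Ectodysplasin is a ligand of the tumor necrosis factor family, made as a membrane protein and released by furin-type proteases. Its A1 form binds the receptor EDAR, which recruits the death-domain adaptor EDARADD, and the complex acts through TRAF proteins, TAK1 and the IKK complex to free NF-kB from its inhibitors. Loss of any of the 3 genes gives the same syndrome, hypohidrotic ectodermal dysplasia, and in the mouse prevents the first wave of hair placodes from forming properly.

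Eda lies on chromosome X at 99975606 to 100400762 on the forward strand (GRCm38, GENCODE M21), with 12 annotated transcripts that have 8 different ends. Edar lies on chromosome 10 at 58600789 to 58675654 and Edaradd on chromosome 13 at 12472632 to 12520438, both on the reverse strand and each with 1 annotated transcript, of 12 and 6 exons. Introns of Eda hold 3 processed pseudogenes and the microRNA gene Mir676 on the same strand, whereas no annotated gene overlaps Edar or Edaradd. The tables give 1 value per gene symbol, so the A1 and A2 forms of Eda were counted together. The promoter windows below, from 250 bases before to 50 after each RefSeq start site (GRCm38.p6), are shown because the 3 genes had different distributions across the same cells. The windows are chrX:99975356-99975655 on the forward strand for Eda, chr10:58675647-58675946 on the reverse strand for Edar and chr13:12520401-12520700 on the reverse strand for Edaradd, and capitals mark a TCF/LEF-type match.
Eda: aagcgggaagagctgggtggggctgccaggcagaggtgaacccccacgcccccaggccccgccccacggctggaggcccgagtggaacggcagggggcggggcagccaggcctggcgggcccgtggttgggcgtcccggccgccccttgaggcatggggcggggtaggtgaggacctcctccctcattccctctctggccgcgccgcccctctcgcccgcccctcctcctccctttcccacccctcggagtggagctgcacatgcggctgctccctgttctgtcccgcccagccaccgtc
Edar: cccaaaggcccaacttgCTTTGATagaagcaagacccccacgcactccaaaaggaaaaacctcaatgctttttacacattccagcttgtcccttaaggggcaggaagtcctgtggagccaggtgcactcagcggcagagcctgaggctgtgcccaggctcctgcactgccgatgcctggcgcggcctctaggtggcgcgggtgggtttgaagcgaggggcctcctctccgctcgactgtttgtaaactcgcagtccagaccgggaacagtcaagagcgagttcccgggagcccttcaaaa
Edaradd: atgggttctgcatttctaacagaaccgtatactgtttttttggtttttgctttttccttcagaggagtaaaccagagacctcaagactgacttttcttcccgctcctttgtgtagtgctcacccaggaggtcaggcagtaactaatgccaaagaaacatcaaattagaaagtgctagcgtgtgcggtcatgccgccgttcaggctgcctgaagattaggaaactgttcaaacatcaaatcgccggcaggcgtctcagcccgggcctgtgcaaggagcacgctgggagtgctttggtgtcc

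The windows were searched on both strands for 4 TCF/LEF-type words (the word CTTTGAA, the word CTTTGAT, the word CTTTGTA and the word CTTTGTT, which differ only in their last letters; words on opposite strands can overlap), for the kappaB consensus and for TATAAA. The only match in the 3 windows was CTTTGAT in Edar, beginning at position -233 from the start site on the strand of the gene. That word was present in 3.73% of 32817 promoter windows of the same length, and any of the 4 words in 16.9%. The kappaB consensus and TATAAA were in 8.46% and 13.6% of windows. The Eda window was GC-rich, at 74.3% with 22 CpG dinucleotides, against 58.7% and 14 for Edar and 49.3% and 11 for Edaradd. The median window had 52.7% and 7. These matches describe letters only and identify no binding site.

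Cells were grouped into 13 clusters without using the 3 genes, and clusters were named from markers that did not include them. Placode-like cells (99, 923 and 972 cells in total epithelium, placode-enriched 1 and placode-enriched 2, the order used throughout) carried markers such as Dkk4, Shh, Fgf20 and Bmp2. Basal-like cells (1140, 228 and 204) carried Krt5, Krt14, Krt15 and integrin genes of the epidermal basal layer. Suprabasal-like cells (314, 71 and 82) were 2 clusters that met markers of the layers above it. One met 8 of 8, among them Krt1 and Krt10, and gave 302 of the 314 cells of total epithelium. The other, led by Krt17, met the minimum of 3 of 8, had none of these markers among its 10 leading genes, and gave 60 and 69 of the cells of the placode-enriched libraries. Another cluster, of 17, 284 and 309 cells, had the highest Sostdc1, a secreted Wnt and Bmp inhibitor made around placodes. It met 6 of 7 basal markers and only 1 of 4 placode-edge markers. Every basal-like cluster also met 1 of these 4, and clusters of the placode-like and suprabasal-like classes met up to 2. The Sostdc1-high cluster therefore stayed unnamed and stands here for the cells at the placode edge by its Sostdc1 alone. Its leading genes also included the DNA replication genes Mcm6, Mcm3 and Gins2, and its members changed with the clustering. Basal-like cells of the total epithelium library came almost entirely from 3 clusters, and those of the placode-enriched libraries from another cluster, led by Cenpf and Gas1, whose cells had passed the MAdCAM-1 gate. Cell-cycle genes were among the leading genes of that cluster and of 2 of the other 3, and the proliferation gene Mki67 stood at 268 CPM (UMIs scaled to a total of 1000000) in it and at 127, 152 and 25.3 CPM in them. Sostdc1 stood at 907 CPM in the Sostdc1-high cluster and nearly as high, at 867 CPM, in the placode-like cluster with the most Wif1. The median cell of the 3 libraries held 21977, 21652 and 23419 UMIs (unique molecular identifiers, 1 per captured RNA molecule), and 1, 1 and 2 cell barcodes were shared between pairs of libraries.

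The ligand transcript was scarce everywhere and by mean level lowest in placode-like cells. In placode-like cells Eda stood at 1.11, 1.08 and 1.16 CPM, scaled per library and class, from 2, 21 and 25 UMIs. In basal-like cells it stood at 4.75, 3.00 and 6.21 CPM, from 124, 22 and 43 UMIs. The lowest basal value was above the highest placode value, so the values of the classes did not overlap. The share of all genes with such a gap was not counted, here or for Edar and Edaradd. Although each value rests on few molecules, the 95% Poisson intervals of placode-like and basal-like cells were apart in both placode-enriched libraries (0.670 to 1.66 against 1.88 to 4.55 CPM, and 0.750 to 1.71 against 4.50 to 8.37). In the total epithelium library they met, at 0.134 to 4.01 against 3.95 to 5.67 CPM. These intervals cover counting error only.

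Eda was lower in placode-like than in basal-like cells by a log2 fold change of -2.04 ± 0.30 (SE; adjusted p = 6.57e-05, edgeR quasi-likelihood test on sums per library and class, with the library as a block). It was lower in 3 of 3 libraries. In that comparison 37.1% of 5998 genes tested were called in either direction and 18.3% as lower, so a call by itself is common between these classes. All 3 members were called. Suprabasal-like cells held Eda at 2.57, 2.71 and 1.29 CPM, and the Sostdc1-high cells at 0, 1.78 and 3.26 CPM, where the 0 comes from 17 cells and allows up to 8.92 CPM. By mean level the order was basal-like (4.66 ± 1.61 CPM, SD, n = 3 libraries), suprabasal-like (2.19 ± 0.78), Sostdc1-high (1.68 ± 1.63) and placode-like (1.12 ± 0.04). The ranges of basal-like and suprabasal-like cells lay next to each other without overlap, while the Sostdc1-high range overlapped those of all other classes.

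Cell by cell, an Eda UMI was seen in 2.02%, 2.28% and 2.57% of placode-like cells and in 9.74%, 7.89% and 18.6% of basal-like cells. Median depths were 16997, 19798 and 21132 UMIs in placode-like cells and 21892.5, 32845.5 and 35057.5 in basal-like cells. With every cell thinned to 5000 UMIs the shares were 0%, 0.650% and 0.617% in placode-like and 2.54%, 1.75% and 2.45% in basal-like cells. These shares came from 0, 6 and 6 against 29, 4 and 5 cells, and their 95% intervals overlapped in each library. The order was thus the same at equal depth, but at levels near the limit of detection. No placode-like cell held more than 1 Eda UMI. Basal-like cells held up to 3. No Eda UMI was seen in 20 melanoblast-like cells (pigment cell precursors) of the total epithelium library, which allows up to 6.29 CPM, and so sets no useful background level.

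**Figure D1:**
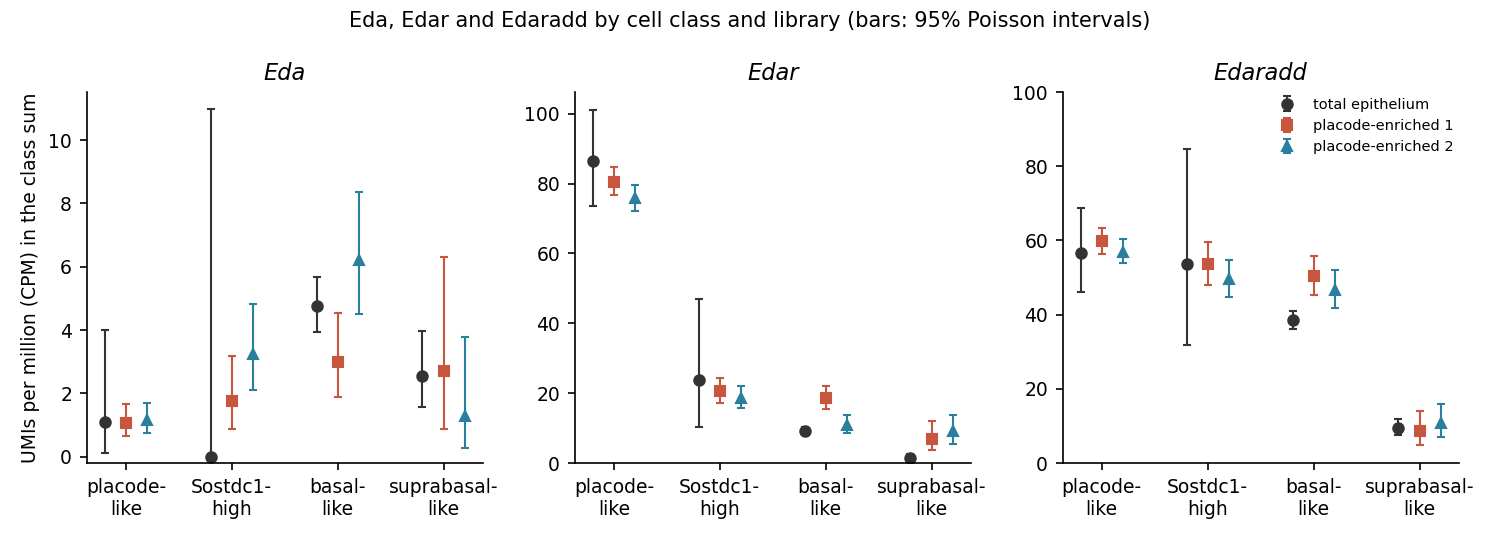
Level of each gene in CPM (linear axes) by cell class, with 1 point per library and 95% Poisson intervals. Eda is lower in placode-like (1.08 to 1.16 CPM) than in basal-like cells (3.00 to 6.21 CPM) and listed at 0 in the 17 Sostdc1-high cells of total epithelium. Edar is highest in placode-like cells (75.9 to 86.5 CPM). Edaradd is at 38.6 to 59.8 CPM in all classes but the suprabasal-like cells (8.66 to 10.8 CPM).

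Between placode-like and basal-like cells the receptor transcript differed in the opposite direction. Placode-like cells held Edar at 86.5, 80.5 and 75.9 CPM. Basal-like cells held it at 9.08, 18.6 and 10.98 CPM. The gap held in the total epithelium library, where no cell had been gated on MAdCAM-1 and Edar was 9.52 times as high in placode-like as in basal-like cells. It was 4.34 and 6.91 times as high in the placode-enriched libraries. The log2 fold change was 2.67 ± 0.14 (SE; edgeR adjusted p = 1.67e-09), and 18.8% of genes tested were called as higher in that comparison. The Sostdc1-high cells were intermediate, at 23.8, 20.5 and 18.8 CPM, and suprabasal-like cells were lowest, at 1.54, 7.04 and 9.06 CPM. By mean level the order was placode-like (81.0 ± 5.31 CPM, SD, n = 3), Sostdc1-high (21.03 ± 2.55), basal-like (12.9 ± 5.02) and suprabasal-like (5.88 ± 3.89). Placode-like values stood far above the next class. The ranges of the classes below it came close without overlapping, at 18.8 against 18.6 CPM and at 9.08 against 9.06 CPM.

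An Edar UMI was seen in 70.7%, 72.5% and 72.1% of placode-like cells, and in 16.8%, 39.0% and 27.5% of basal-like cells. Suprabasal-like cells were at 2.55%, 12.7% and 23.2%, at median depths of 24241, 25599 and 27343 UMIs. At 5000 UMIs per cell the placode-like shares were 43.4%, 31.6% and 32.0% against 5.44%, 10.96% and 4.90% in basal-like cells and 0.955%, 2.82% and 8.54% in suprabasal-like cells. In the total epithelium library 24 of 99 placode-like cells held 3 or more Edar UMIs, against 9 of 1140 basal-like cells. After thinning, the basal-like share was below the suprabasal-like share in placode-enriched library 2 and above it in the other libraries, so basal-like and suprabasal-like cells had no common order there. No Edar UMI was seen in the 20 melanoblast-like cells, which allows up to 6.29 CPM.

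The adaptor transcript was abundant in every class but the suprabasal-like cells. Edaradd stood at 56.5, 59.8 and 57.0 CPM in placode-like cells, at 38.6, 50.4 and 46.7 CPM in basal-like cells and at 53.5, 53.6 and 49.6 CPM in the Sostdc1-high cells. The placode-like values were all above the basal-like ones, by 1.47, 1.19 and 1.22 times within the 3 libraries. The fold change was small, at log2 0.31 ± 0.07 (SE; edgeR adjusted p = 0.00338). The call was lost with cells thinned to 5000 UMIs (adjusted p = 0.171), with DESeq2 (0.0555), without the library as a block (0.0864) and when Sostdc1-high cells were counted as basal-like and cells with a Mki67 or Top2a UMI were left out (0.584). The direction was the same in each. By mean level the order was placode-like (57.8 ± 1.74 CPM, SD, n = 3), Sostdc1-high (52.2 ± 2.31), basal-like (45.2 ± 6.06) and suprabasal-like (9.65 ± 1.07). The Sostdc1-high and basal-like ranges overlapped, and the widest gap was to the suprabasal-like cells. An Edaradd UMI was seen in 64.6%, 65.1% and 65.4% of placode-like cells and in 55.2%, 74.6% and 70.6% of the deeper basal-like cells. At 5000 UMIs per cell these shares were 30.3%, 26.8% and 25% against 19.7%, 23.7% and 26.0%, so the classes overlapped.

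Markers of fibroblasts moved with the placode-like class. Of 8 such markers 6 were in both tables, and their summed level was 1136 to 1527 CPM in placode-like cells, 583 to 867 in basal-like, 747 to 815 in Sostdc1-high and 213 to 291 in suprabasal-like cells. Dcn and Postn made up most of these sums. Col1a1, a defining collagen of fibroblasts, was at 0 to 0.137 CPM in basal-like cells and at 0.0463 to 47.7 CPM in placode-like cells, highest in the total epithelium library. Without the placode-like cluster that held the most Col1a1, the placode-like against basal-like log2 fold changes were -1.81 for Eda, 2.65 for Edar and 0.37 for Edaradd, and all 3 stayed called. The part of these transcripts in the other values was not tested.

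Ligand and receptor levels were then set against each other within each library as log2 of Edar over Eda (1 CPM added to each). Each count is a captured molecule, but capture can differ between genes, so the change between classes is read and not the ratio itself. In placode-like cells this balance was 5.37, 5.29 and 5.15 in the 3 libraries, and in basal-like cells 0.81, 2.29 and 0.73. The placode-like values lay close together and clear of the basal-like ones. The difference was 4.00 ± 0.86 (SD, n = 3 libraries) with a range of 3.00 to 4.56, and the exact two-sided sign-flip permutation test gave p = 0.25, the smallest it can give with 3 libraries. The Sostdc1-high cells were between in the placode-enriched libraries, at 2.95 and 2.21. Their total epithelium value, 4.63, came from 17 cells with 0 Eda and 8 Edar UMIs. It is set by the added 1 CPM, since that 0 allows up to 8.92 CPM. Suprabasal-like cells were at -0.49, 1.12 and 2.13 and so spread the most. There the total epithelium value came almost entirely from the Krt1-high and Krt10-high cluster, and the placode-enriched values mostly from a cluster led by Krt17, Pvrl4 and Zfp750.

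**Figure D2:**
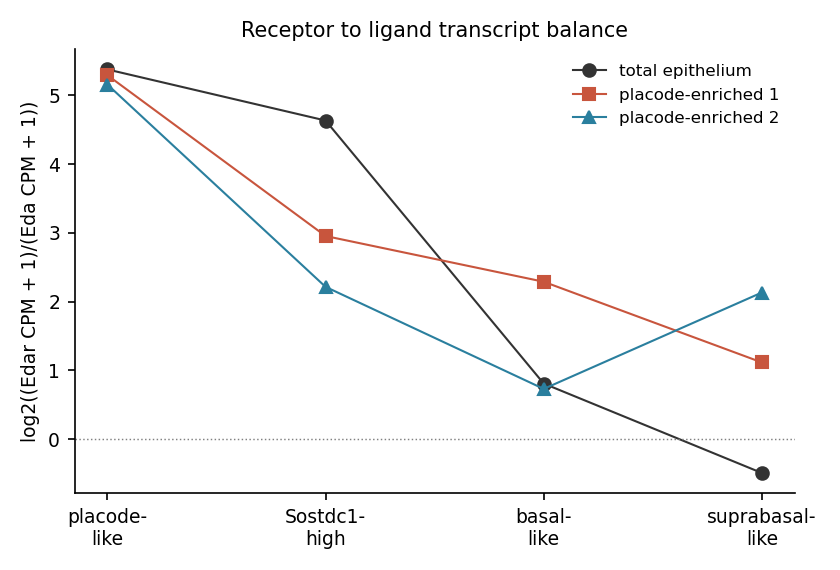
Balance of receptor to ligand transcript, log2((Edar CPM + 1)/(Eda CPM + 1)), by cell class, with 1 line per library. The 3 libraries meet at 5.15 to 5.37 in placode-like cells and lie between 0.73 and 2.29 in basal-like cells.

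Cells with both ligand and receptor transcripts were few, as were cells with any Eda UMI. Both were detected in 2, 15 and 22 placode-like cells, out of 2, 21 and 25 with an Eda UMI. In basal-like cells both were detected in 15, 5 and 6, out of 111, 18 and 38 with an Eda UMI. Among basal-like cells an Eda UMI was found in 7.81%, 5.62% and 10.7% of cells with an Edar UMI and in 10.1%, 9.35% and 21.6% of cells without one. These shares were lower in the Edar-positive cells of each library, but they rest on those 15, 5 and 6 cells. Among placode-like cells the same shares were 2.86%, 2.24% and 3.14% against 0%, 2.36% and 1.11%, with no common direction. Receptor and adaptor were found together more often, in 46, 453 and 468 placode-like cells. An Edaradd UMI was present in 65.7%, 67.7% and 66.8% of placode-like cells with an Edar UMI and in 62.1%, 58.3% and 62.0% of those without. Depth of the cell was not held equal in these shares, and its part was not tested.

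The placode-like class was itself uneven for the receptor. With the libraries summed, Edar was 105 CPM (95% Poisson interval 97.5 to 113) in the cluster with the most Shh, the signal that placodes send to the dermis and epithelium. It was 89.7 CPM (82.8 to 97.1) in the cluster with the most Wif1, a secreted Wnt inhibitor, and 79.0 (73.5 to 84.7), 70.0 (62.8 to 77.7) and 62.2 CPM (58.2 to 66.5) in the other 3. The order of the first 2 was not the same in every library: the Shh-high cluster held 103, 93.8 and 112 CPM and the Wif1-high one 114, 96.9 and 80.5 CPM, so the Shh-high cluster was higher only in placode-enriched library 2. The lowest of the 5 was the cluster led by Dkk4, Ube2c and Cenpf, and it was still above the highest level in any cluster outside the class, 19.7 CPM in the Sostdc1-high cells. Edaradd ran from 51.0 to 69.5 CPM over the same clusters and with the libraries summed was highest in the Wif1-high one. Its interval there (63.4 to 76.0) overlapped that of the next cluster (55.3 to 69.3). In the total epithelium library the Shh-high cluster was above it, at 79.1 against 68.8 CPM. Eda ran from 0.510 to 1.70 CPM, from 3 to 23 UMIs a cluster, and its intervals overlapped. Across the 4 basal-like clusters Eda was at 4.28 to 5.03 CPM with the libraries summed, but in the cluster led by Cenpf and Gas1 it was 2.85 CPM (1.74 to 4.40) in placode-enriched library 1 and 6.21 CPM (4.50 to 8.37) in library 2. Edar was at 7.18, 8.82 and 11.2 CPM in the 3 clusters of the total epithelium library and at 14.9 CPM (13.0 to 17.0) in the one led by Cenpf and Gas1, where it was 18.8 and 10.98 CPM in the placode-enriched libraries.

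**Figure D3:**
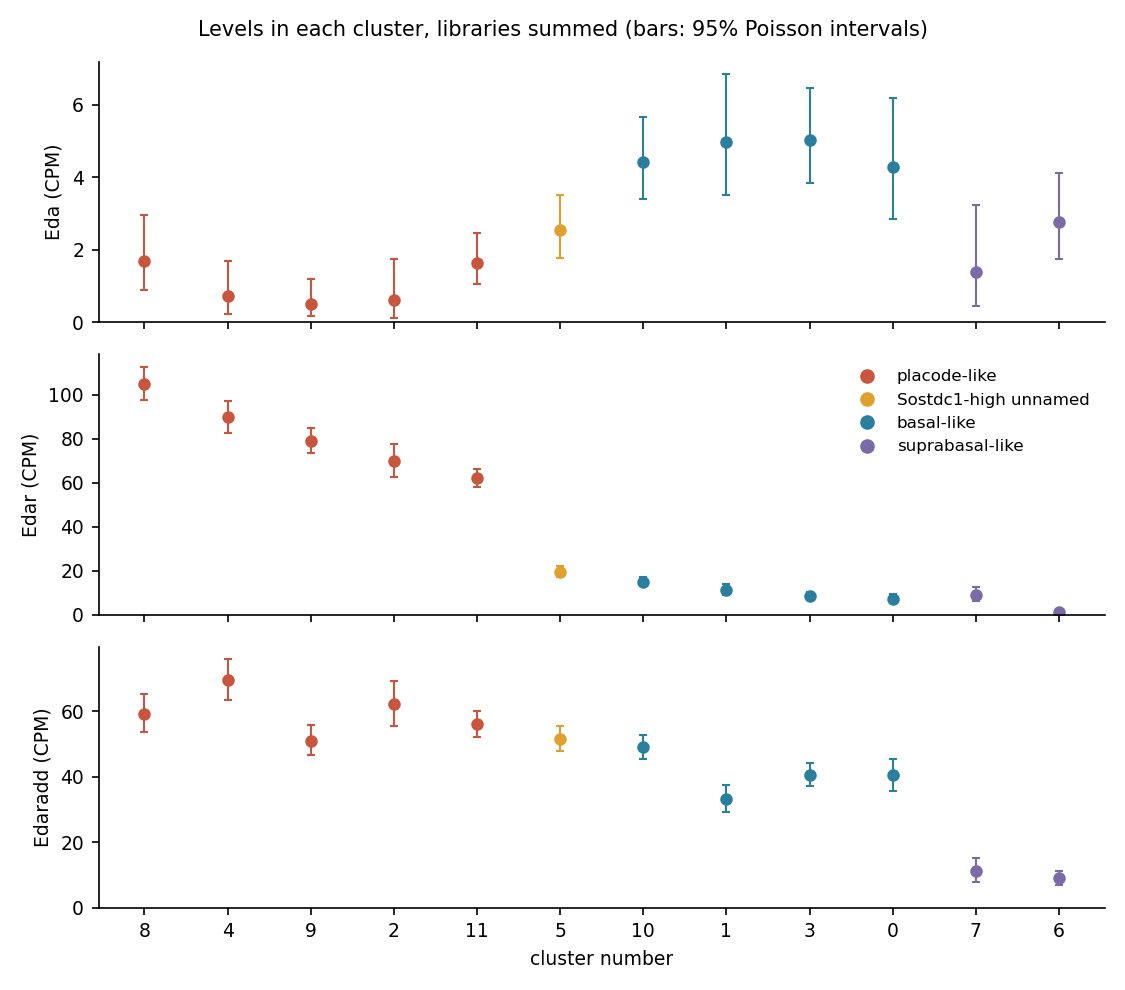
Level of each gene (CPM, linear axes from 0) in 12 clusters with the libraries summed, coloured by class, with 95% Poisson intervals. Edar runs from 105 CPM in cluster 8, which has the most Shh, to 62.2 CPM in cluster 11 (cluster 8 is above cluster 4 only in placode-enriched library 2), and is at most 19.7 CPM outside the placode-like class.

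The Sostdc1-high cells were compared with placode-like and with basal-like cells. Against placode-like cells Edar was lower by a log2 fold change of -1.98 ± 0.10 (SE), at 18.8 to 23.8 against 75.9 to 86.5 CPM. Its adjusted p was 3.04e-05 in 1 edgeR fit on all 4 classes; the fit on these 2 classes alone estimated no variation between genes' dispersions and gave 7.72e-91, which is too small to be read. Edar stayed lower and called under the other clusterings that held such cells, but by less. It was -0.51 at resolution 2, -0.85 with the other set of clustering genes and -0.43 with no doublets removed. At resolution 0.5 no cluster was set apart as Sostdc1-high, so that clustering gave no value for these cells. In that comparison 36.3% of 5621 genes were called, 18.8% as lower. The SE of Edar, these shares and the Edaradd test that follows also came from the fit on 2 classes and share its limit. Edaradd did not pass the test, at -0.17 ± 0.08 (adjusted p = 0.0856), and Eda did not pass the filter on low counts. Without that filter Eda was higher in Sostdc1-high cells, at 1.13 ± 0.37 (SE). That fit also used these 2 classes alone, so its p-value is not read either. The Eda value rested on 0, 11 and 25 UMIs against 2, 21 and 25 in placode-like cells. Against basal-like cells none of the 3 members passed, where 11.5% of 5558 genes did. Their log2 fold changes were -0.95 ± 0.33 for Eda (edgeR adjusted p = 0.0619), 0.47 ± 0.16 for Edar (0.0644) and 0.10 ± 0.09 for Edaradd (0.590). This comparison depended on where the clustering drew the cells. Edar was called at 2.60 at resolution 2, 1.61 with the other set of clustering genes and 2.06 with no doublets removed. The cells of all classes changed with these settings, and the cause was not tested.

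Suprabasal-like cells held less of the adaptor and receptor transcripts than basal-like cells. Edaradd stood at 9.50, 8.66 and 10.8 CPM against 38.6, 50.4 and 46.7 CPM, a log2 fold change of -2.20 ± 0.15 (SE; edgeR adjusted p = 4.78e-05). Edar fell by 1.45 ± 0.37 on the log2 scale (adjusted p = 0.0235). Eda was at -1.06 ± 0.38 and did not pass (adjusted p = 0.0801), though it did in 1 fit on all 4 classes (0.0311) and with no filter on low counts (0.0480). Members called thus numbered 2 of 3, and 26.8% of 5596 genes tested were called in that comparison. The Edar call was lost without the library as a block (adjusted p = 0.147) and without placode-enriched library 1 (0.156). With 4 of 8 markers required, which left 302, 11 and 13 cells, the Edar value was -2.68 (adjusted p = 0.000183). Within the class, Edar was at 1.56 CPM (95% Poisson interval 0.829 to 2.66) in the Krt1-high cluster and at 9.16 CPM (6.30 to 12.9) in the Krt17-high one, whereas Edaradd was at 8.98 and 11.1 CPM.

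Within placode-like cells no member was called between placode-enriched and total epithelium libraries (edgeR), where 2.13% of 6375 genes tested were. The log2 differences of placode-enriched from total epithelium were 0.10 ± 1.06 for Eda (adjusted p = 0.986), -0.07 ± 0.16 for Edar (0.917) and 0.12 ± 0.17 for Edaradd (0.826). The unadjusted p-values were 0.928, 0.674 and 0.479. In basal-like cells Edar was higher in the placode-enriched libraries, by 0.76 ± 0.23 (adjusted p = 0.0343). Edaradd was at 0.39 ± 0.14 (0.0675) and Eda at 0.0025 ± 0.33 (0.997), and 11.5% of 5678 genes tested were called. The Edar value was 0.36 without placode-enriched library 1 and 1.07 without library 2, and the call was lost with DESeq2 (0.517), with thinned cells (0.341) and at resolution 2 (0.546). The difference between placode-like and basal-like cells in this Edar value was itself called (-0.82 ± 0.20, adjusted p = 0.00327), as it was for 2.50% of genes. Basal-like cells of the 2 kinds of library came from different clusters, so gate and cluster cannot be told apart.

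The rest of the pathway was read from a list of 40 other genes, of which 39 were in both tables. Between placode-like and basal-like cells, 33 were tested and 20 were higher and 1 was lower, with a median log2 fold change of 0.66 against -0.0027 over all genes tested, where 18.8% were called higher and 18.3% lower. Furin, whose protease releases the ligand, was higher in placode-like cells, at 19.4, 25.9 and 25.9 CPM against 11.8, 15.6 and 17.1 (log2 0.66 ± 0.10, edgeR adjusted p = 9.74e-05). It thus moved against its substrate Eda. Of the other receptors, Tnfrsf19 (TROY), a relative of Edar in the same family, was at 101, 123 and 111 CPM against 111, 111 and 88.2 and did not pass (0.13 ± 0.07, adjusted p = 0.196), though it did in 6 of 17 alternatives, which ran from 0.0091 to 0.24. Eda2r, the receptor of the A2 form, was nearly absent, with a mean of 0.242 CPM in placode-like and 0.616 CPM in basal-like cells, and was filtered out.

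Among the adaptors and kinases next to the receptor, 7 of 8 were tested and Edaradd and Traf3 were the 2 that passed. Traf2, Tab2 and Map3k7, which encodes the kinase TAK1, were at 0.13 ± 0.11, -0.14 ± 0.08 and -0.08 ± 0.10 and did not pass. In the IKK and NF-kB group 6 of 9 were higher. Relb, a subunit of the non-canonical NF-kB dimer, stood at 65.4, 62.0 and 56.6 CPM against 16.1, 22.3 and 12.3 (log2 1.84 ± 0.11, adjusted p = 6.53e-09). Ikbkb, the catalytic subunit of IKK, and Nfkb1, which encodes p105 and p50, rose less, by 0.49 ± 0.09 and 0.29 ± 0.08. The Nfkb1 call was lost in 6 of 17 alternatives and the Ikbkb call in 2. For Nfkb1 these included thinned cells (log2 fold change 0.0635), DESeq2 and leaving out either placode-enriched library. Rela, the p65 subunit, was at 0.22 ± 0.09 and did not pass (adjusted p = 0.0663).

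Of the NF-kB inhibitors 5 of 6 were higher. Nfkbia, the inhibitor that NF-kB itself induces, stood at 380, 297 and 311 CPM against 132, 133 and 127 (log2 1.30 ± 0.06, adjusted p = 4.52e-10). Nfkbib and Tnip1 rose by 0.48 ± 0.08 and 1.10 ± 0.10, and Cyld, a deubiquitinase that restrains the pathway, was at 0.28 ± 0.15 (adjusted p = 0.156) and passed in 5 of 17 alternatives. The Furin call was lost in 2 of 17 and the Nfkbib call in 1. The reported targets held 14 measured genes. Among these, 4 had named the placode-like class and were not tested, such as the Wnt inhibitor Dkk4 (mean 449 CPM in placode-like and 21.2 CPM in basal-like cells). Of the 10 others 7 were higher and 1 was lower. Ltb, the cytokine lymphotoxin beta, stood at 272, 267 and 236 CPM against 8.43, 20.2 and 11.6 (log2 4.37 ± 0.15, adjusted p = 1.46e-11), and Icam1, an adhesion molecule, rose by 0.90 ± 0.07. Fst, which encodes the activin antagonist follistatin, was the 1 that was lower, at 33.3, 44.0 and 37.2 CPM against 131, 85.1 and 73.1 (log2 -1.15 ± 0.12, adjusted p = 1.69e-06). Madcam1, a target that also encodes the sorting antigen, was counted among the 7. The lists were drawn up with results of these data known, and their direction is a description only.

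**Figure D4:**
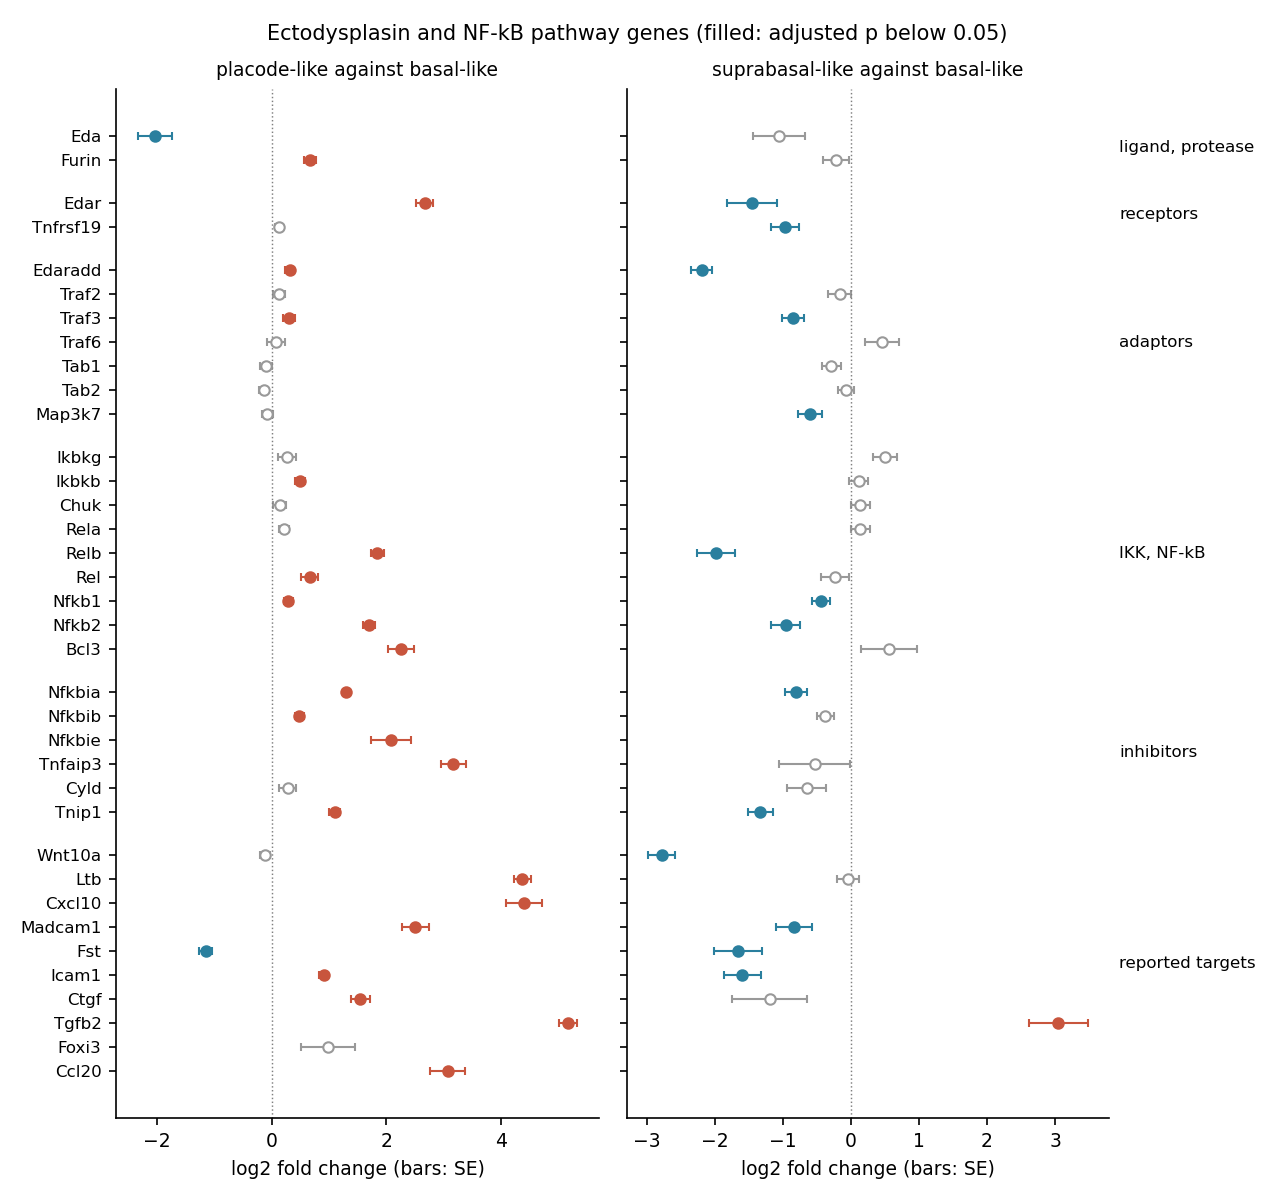
Log2 fold changes with SE of the pathway genes tested, grouped by role, in placode-like (left) and suprabasal-like cells (right) against basal-like cells; filled points passed an adjusted p of 0.05. In placode-like cells Eda (-2.04) and Fst (-1.15) are the filled points below 0, and Ltb (4.37) lies far above it.

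In suprabasal-like cells the list went mostly the other way. Of 29 other genes tested 1 was higher and 12 were lower than in basal-like cells (13.0% and 13.8% of all genes tested), with a median of -0.44 against -0.03. Lower genes included Tnfrsf19 (-0.97 ± 0.20, adjusted p = 0.0106), Relb (-1.98 ± 0.28, 0.00172), Nfkbia (-0.81 ± 0.16, 0.00812) and Icam1 (-1.60 ± 0.27, 0.00433). The 1 higher gene was Tgfb2, which was chosen for mention after its value was seen (3.05 ± 0.43, 0.00165). Both comparisons share the basal-like cells.

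The genes with the most similar levels were ranked for each member by Pearson's r of log2(CPM + 1) over the 12 sums of 4 classes and 3 libraries, among 4635 genes. These sums share libraries and, within a class, cell state, so r is given as a description. Closest to Edar were Sv2b (r = 0.981), Nfkbia (0.975), Limd2 (0.975), Parm1 (0.973) and Cd74 (0.971). Closest to Edaradd were Odc1 (0.985), Cxcl14 (0.985), Txnrd1 (0.979), Ankrd6 (0.979) and Sfr1 (0.974), all lowest by mean level in suprabasal-like cells. Cxcl14, for one, averaged 2138 CPM in placode-like and 2175 in basal-like cells but 280 in suprabasal-like cells. For Eda, whose sums held 0 to 124 UMIs, r was lower, at 0.883 for Mnd1, 0.874 for Timm9 and Cpox, and 0.843 for Slc25a3 and Phka2. Between the members themselves r was -0.48 for Eda and Edar, 0.76 for Edar and Edaradd and -0.15 for Eda and Edaradd.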

How the data were processed

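The values the authors deposited were raw UMI counts for each gene in each cell, made with 10x Chromium 3' chemistry per the labels' protocols. The submitters' processing notes name Cell Ranger, Seurat and build mm10; versions, annotation, strand setting and cell filters are not given in the sources used here. In the shared placode-enriched table the barcode ending gave the library. Totals were 36924284, 34900788 and 38645840 UMIs. A filter of 500 genes and 10% mitochondrial UMIs removed 0 cells. Scrublet called 11, 4 and 4 doublets (0.687%, 0.265% and 0.255%), too few to take the caller as having worked, and these were removed. Leiden clustering (scanpy 1.11.5, igraph 0.11.9, resolution 1) used the 1000 most variable of 7323 genes from 1 of 2 arbitrary sets (7368 and 7288 genes), leaving out members, markers and lists. Tests used the other set plus the lists, minus the naming markers.

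A cluster was named when enough markers reached a share of the highest cluster's level: placode-like 4 of 8 at 25%, basal-like 7 of 7 at 50%, suprabasal-like 3 of 8 at 25%, melanoblast-like 5 of 5 at 50%. These cut-offs were chosen with the clusters in view. Because cells are not replicates, UMIs were summed per library and class and tested with edgeR 4.0.16 (R 4.3.3; TMM, filterByExpr, quasi-likelihood, Benjamini-Hochberg over all genes tested, threshold 0.05), checked on simulated data. Each library gave a sum of both classes in a class comparison, so library was the block. Comparisons between libraries had 1 residual degree of freedom and took the single total epithelium library to be as variable as the other 2. Shares have exact binomial and levels exact Poisson 95% intervals; a count of 0 allows 3 counts. The series design states biological replicates for the placode-enriched libraries. Alternatives included DESeq2 1.42.0.

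Named genes were the members, up to 4 of the most abundant genes per role of the pathway list, and the 5 genes most like each member; others are named where a count needed them. Members and lists were chosen with earlier results of these data known.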

Additional observations from a re-analysis of the deposited data

Results flagged for a closer look

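The Edar difference between placode-enriched and total epithelium libraries was not the same in placode-like and basal-like cells. The placode-enriched minus total epithelium difference was lower in placode-like cells by a log2 value of -0.82 ± 0.20 (SE; edgeR interaction term). The single values were -0.07 and 0.76. The fit held 1 total epithelium library and left 1 residual degree of freedom, so no p-value is read from it. No alternative setting was run for this term. The basal-like value alone went from 0.36 to 1.07 with 1 placode-enriched library left out. The basal-like cells of the 2 kinds of library came from different clusters, so gate, library and cluster cannot be told apart. The same term was 0.09 for Eda and -0.26 for Edaradd.

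Edaradd gave 9 UMIs in 8 of the 20 melanoblast-like cells of the total epithelium library, cells that no comparison used, which is above the 3 counts that a count of 0 allows. The level was 18.9 CPM (95% Poisson interval 8.63 to 35.8), against 38.6 CPM in basal-like cells. With the cells thinned to 5000 UMIs, 0 of 20 held one. With the libraries summed, the basal keratin Krt15 stood at 327 CPM in the melanoblast-like cluster and at 2381 to 2436 CPM in the 3 basal-like clusters of the total epithelium library. The part of free RNA or doublets was not tested.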

How the results depend on the processing

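Eda lower and Edar higher in placode-like than in basal-like cells kept their direction and call in all 16 and 17 alternatives that gave a value, at -2.39 to -1.62 and 2.36 to 3.02. Eda was filtered out when only cells with no Mki67 or Top2a UMI were kept. Edaradd lower in suprabasal-like cells kept its call in 15 of 15. Among the alternatives was naming placode-like clusters without known Eda targets. It left the same number of cells in every class and library, so it is no separate check in these counts or in those out of 17. For the other results the cause of a change was not tested. The library pairs the classes, and without this block Edaradd in placode-like against basal-like cells was 0.35 and Edar in suprabasal-like against basal-like cells -1.44, both no longer called; no other member's call changed. Genes called then numbered 1146 for placode-like against basal-like, 882 for suprabasal-like against basal-like, 118 for Sostdc1-high against basal-like and 975 for Sostdc1-high against placode-like cells, where the numbers as reported were 2224, 1499, 638 and 2042. In the same order DESeq2 called 1301, 962, 171 and 671 genes and thinned cells 1035, 709, 192 and 850.

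Edaradd in placode-like against basal-like cells was 0.29 with thinned cells, 0.32 with DESeq2 and 0.15 with Sostdc1-high cells counted as basal-like and cycling cells left out, where 730 genes were called. That last setting also gave Tab2 0.13, Map3k7 0.24 and Rela -0.20, against the reported sign; Map3k7 was 0.11 at resolution 2, 0.0627 with the other gene set and 0.33 with thinned cells. Traf2 was -0.0522 to 0.202 with 1 library left out, lowest without placode-enriched library 1. Leaving out 1 library gave 1415 to 2610 genes here, 770 to 1642 for suprabasal-like, 160 to 1229 for Sostdc1-high against basal-like and 606 to 2330 against placode-like cells. Edar in suprabasal-like cells ranged from -2.03 to -0.87 over these and was -2.68 with 4 suprabasal markers required, and Eda there was called at -1.06 with no filter and -1.02 in 1 fit on all classes.

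Sostdc1-high against basal-like cells depended most on the clustering. At resolution 2 Eda was -1.72, Edar 2.60 and Edaradd 0.73 (1288 genes), and with no doublets removed -1.48, 2.06 and 0.34 (1714 genes), all called. With the other gene set Edar was 1.61 (1011 genes), and 1 fit on all classes called 294. With no filter Eda was called at -0.96 and Edar at 0.45. Leave-one-out values were -1.07 to -0.89 for Eda and 0.40 to 0.91 for Edar, both called without the total epithelium library. Edaradd was -0.0374 with thinned cells. Against placode-like cells Edaradd was 0.16 at resolution 2 (1147 genes), 0.0922 with no doublets removed (1256 genes) and -0.23, called, without the Col1a1-high cluster; 1 fit on all classes called 1257. Edar against placode-like cells kept its call in the settings that held Sostdc1-high cells, at -2.07 to -0.43. Resolution 0.5 held none.

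Between libraries, Eda in placode-like cells was -0.82 at resolution 2, -0.00029 with the other gene set and -0.32 with no doublets removed; Edar was 0.11 at resolution 2 and Edaradd -0.0649 with thinned cells. Genes called, 136 as reported, were 42, 33 and 18 under those clusterings, 59 with thinned cells and 36 with DESeq2. In basal-like cells Eda was -0.35 at resolution 0.5, -0.0829 at resolution 2, -0.28 with the other gene set, -0.28 with no doublets removed and -0.0097 with no filter, and -0.63 to 0.47 with 1 placode-enriched library left out. Edar was 0.36 at resolution 2, 0.59 with thinned cells and 0.76 with DESeq2, none called, and 0.36 to 1.07 with a library left out. Edaradd was called at resolution 0.5 (0.42), with the other gene set (0.45) and with no doublets removed (0.40), and was -0.00096 at resolution 2. Genes called, 654, were 29 at resolution 2, 351 with thinned cells and 178 with DESeq2. The difference in balance was 2.94 with 5 CPM added. Few Eda molecules limit every Eda value: the placode-like sum of total epithelium held 2. The added settings on the Col1a1-high cluster, cycling cells and 4 suprabasal markers were chosen after seeing the data.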
